A study of Mus musculus with 6 samples.

Results

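The Slc25 genes encode the mitochondrial carriers, membrane proteins that are made from nuclear genes and move nucleotides, phosphate, carboxylates, amino acids, cofactors and acylcarnitines across the inner mitochondrial membrane. In the heart, which makes most of its ATP in mitochondria, the ADP/ATP carriers and the phosphate carrier supply ATP synthase with its substrates and export the product. The aspartate/glutamate and oxoglutarate carriers form the membrane steps of the malate-aspartate shuttle, and the carnitine/acylcarnitine carrier admits fatty acids for oxidation. The family was taken as all genes whose annotated symbol starts with Slc25a, each read by whichever of its single-gene probe sets was brightest on average over the 6 arrays. This gave 44 of 18193 genes, with 93 probe sets in all. Slc25a21 and Slc25a43 were not analysed here.

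The samples were the left ventricular apices of 6 female littermate mice, 8 weeks old and on a mixed C57B6 and B6129 background, with 1 Affymetrix array per mouse. The 3 knockout mice (PTIP KO) had 1 floxed and 1 null copy of Paxip1, which encodes the nuclear protein PTIP, a component of complexes that methylate histone H3. They also carried a transgene in which the cardiac-specific alpha myosin heavy chain promoter drives Cre recombinase fused to a modified estrogen receptor. The 3 control mice (PTIP+) had 1 floxed copy beside 1 wild-type copy, and no Cre transgene is named for them. Both groups received tamoxifen at 20 mg/kg, which lets the fusion protein delete the floxed allele in cardiomyocytes. RNA was taken at 5 days, which one label counts from the injection and another gives as the length of treatment. Loss of PTIP, the null allele and the transgene cannot be told apart in this comparison, and cells other than cardiomyocytes keep the floxed allele.

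Paxip1 checked the labels. On probe set 1423303_at it read 6.34, 5.90 and 5.90 on the log2 scale in knockout mice 1 to 3 and 7.80, 7.71 and 8.10 in the controls, and so fell by 1.83 (SE 0.17, limma adjusted p = 0.0240). In all, 3 of its 4 probe sets passed an adjusted p of 0.05, and none passed with any 1 mouse left out. The 1 that did not pass is its brightest, 1434363_x_at. It differed by -0.95 (SE 0.16, limma adjusted p = 0.106), with groups that did not overlap. The 6 cardiomyocyte markers, Myh6 and Tnnt2 among them, had a mean level between 13.43 and 13.50 in all 6 mice. The arrays correlated at 0.989 to 0.995, and control 1 lay farthest from the others: it held the most extreme value for 16 of the 44 carriers and the highest 3' minus 5' actin difference (1.85, against 1.17 to 1.64 in the other mice), a sign of less intact RNA. Values below are RMA log2 values, so a difference of 1 is a 2-fold change. RMA makes the arrays alike in distribution, so a shift in the total RNA of the tissue cannot be seen. As the tissue is a mixture, fewer cells of a type and less RNA per cell cannot be told apart.

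No carrier gene passed the test in the knockout ventricles. By limma with Benjamini-Hochberg adjustment over all 45037 probe sets, 0 of 44 carriers had an adjusted p under 0.05, where 0.286% of all genes did. The lowest adjusted p of a carrier was 0.280. At an unadjusted limma p under 0.05 there were 2 carriers, Slc25a34 lower and Slc25a1 higher, or 4.55% of the family, against 9.27% of all genes (5.47% higher and 3.80% lower). The groups did not overlap for 4 carriers, Slc25a34 and Slc25a36 below the controls and Slc25a1 and Slc25a15 above them, or 9.09% against 16.0% of all genes. Both shares lay under the background. By sign, 25 carriers were higher and 19 lower, with a median difference of 0.04 beside 0.02 over all genes. The differences ran from -0.47 in Slc25a27 to 0.29 in Slc25a1.

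**Figure D1:**
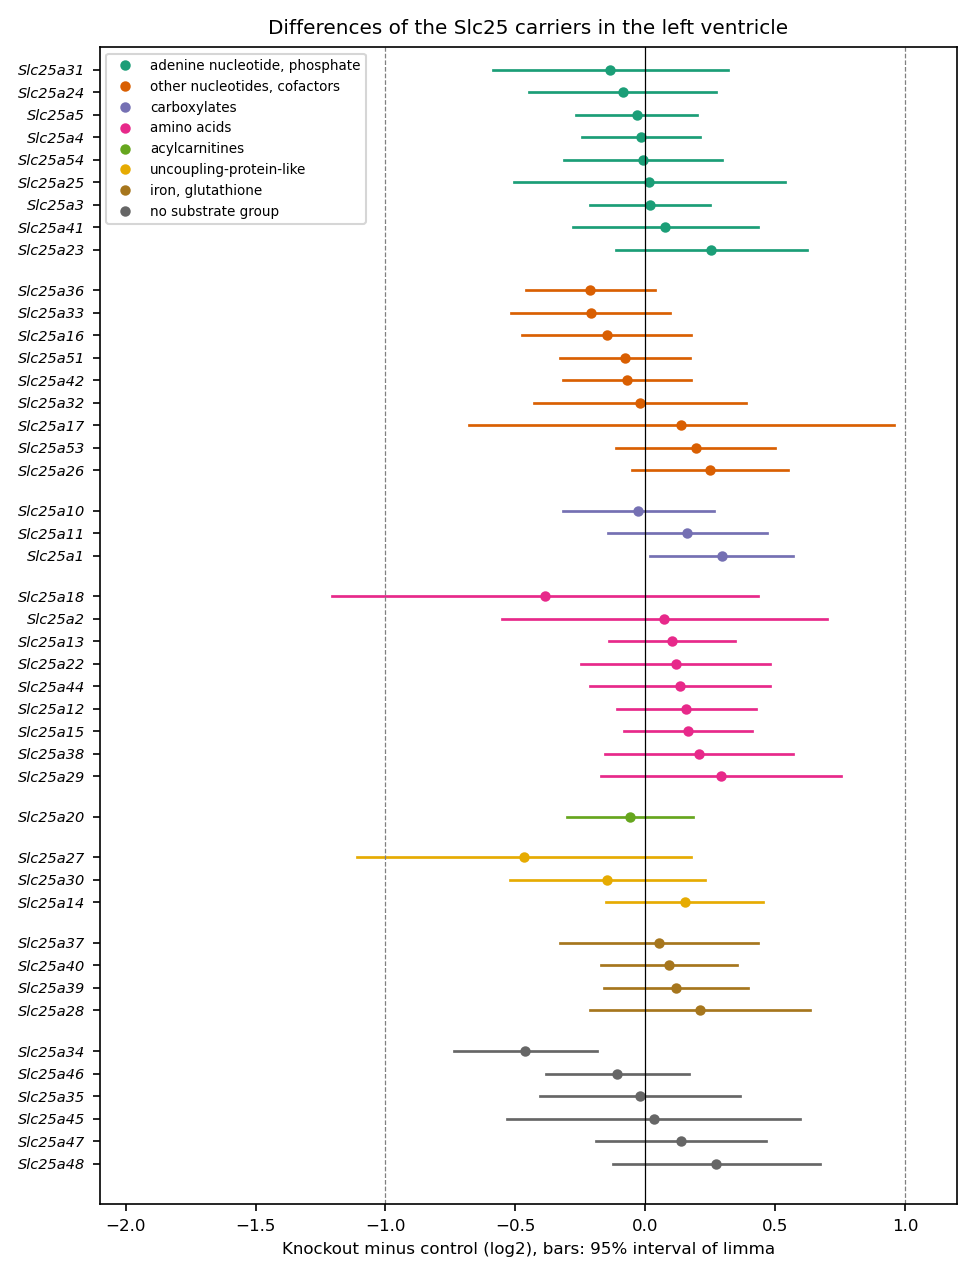
Log2 difference (knockout minus control) of each of the 44 carriers on its brightest probe set, grouped by the substrate list in which it was placed. Points are the estimates, bars the 95% intervals of limma and dashed lines a 2-fold change. All intervals but those of Slc25a18 and Slc25a27 lie between the dashed lines, and those of Slc25a34 and Slc25a1 exclude 0 before adjustment.

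The intervals show what size of change these 6 arrays leave room for. The 95% interval of the difference lay within a 2-fold change in either direction for 42 of 44 carriers and within a 1.5-fold change for 33, where 94.6% and 70.5% of all genes did. The exceptions at 2-fold were Slc25a18, with an interval from -1.21 to 0.43, and Slc25a27, from -1.11 to 0.18. Slc25a18, a glutamate carrier, had a mean signal of 3.78 over the 6 arrays, and 7 carriers in all lay below 5.19, the median of the means of all probe sets. At such dim signals RMA compresses differences, so a narrow interval says less there. A carrier whose adjusted p misses the threshold is not thereby shown to be equal in the groups.

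Slc25a34 had the smallest p of the family. It is a carrier of the inner membrane to which no substrate is assigned here, and it is measured by 1 probe set. It read 10.86, 10.92 and 11.06 in knockout mice 1 to 3 and 11.31, 11.55 and 11.36 in controls 1 to 3. All knockout mice lay below all controls, by a difference of -0.46 (SE 0.12, 95% interval -0.74 to -0.19), or 1.38-fold. Its unadjusted limma p was 0.00518 and its adjusted p 0.280, so it did not pass. Over its other settings with more than 1 knockout mouse the limma adjusted p ran from 0.086, with a variance trend, to 0.568. With each mouse left out in turn the difference stayed between -0.52 and -0.39 and the unadjusted limma p between 0.0061 and 0.0218. The exact permutation p of its 6 values was 0.1, the smallest that 3 against 3 mice allow.

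Slc25a36, which carries pyrimidine nucleotides, was lower on each of its 3 probe sets without passing on any. Its brightest probe set, 1419657_a_at, read 10.78, 10.90 and 10.94 in the knockout mice against 11.14, 11.00 and 11.11 in the controls. Probe set 1438520_at read 7.48, 7.36 and 7.50 against 7.89, 7.76 and 7.71. The groups did not overlap on either probe set, while on 1419656_at knockout 2 at 8.55 lay above control 1 at 8.53. The 3 differences were -0.21 (SE 0.11, limma adjusted p = 0.632), -0.34 (SE 0.11, limma adjusted p = 0.405) and -0.23 (SE 0.12, limma adjusted p = 0.657). Slc25a33, the other pyrimidine nucleotide carrier, had a difference of -0.21 (SE 0.13), with groups that overlapped.

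Slc25a1, the citrate carrier that exports citrate for lipid synthesis, was the other gene at an unadjusted p under 0.05. It read 5.76, 5.81 and 5.77 in the knockout mice against 5.53, 5.62 and 5.31 in the controls. All knockout mice lay above all controls, by 0.29 (SE 0.12, 95% interval 0.02 to 0.57). Its unadjusted limma p was 0.0393 and its adjusted p 0.519. The signal is dim, and the unadjusted limma p ranged from 0.0323 to 0.148 when each mouse was left out.

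The promoters of these 3 genes are shown because they are the carriers whose groups separated on their brightest probe set with the lowest p. Each sequence is the 250 bases before the annotated start, from RefSeq on GRCm38.p6, 5' to 3' on the gene's strand, which is the minus strand for all 3. Slc25a34 lies at chr4:141623835-141624084, Slc25a1 at chr16:17928220-17928469 and Slc25a36 at chr9:97111042-97111291. Capitals mark a match to a searched motif.
Slc25a34: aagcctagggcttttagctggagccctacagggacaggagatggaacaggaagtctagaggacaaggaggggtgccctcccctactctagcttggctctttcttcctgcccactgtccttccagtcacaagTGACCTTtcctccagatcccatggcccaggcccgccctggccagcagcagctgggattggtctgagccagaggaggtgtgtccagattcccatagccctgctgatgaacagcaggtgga
Slc25a1: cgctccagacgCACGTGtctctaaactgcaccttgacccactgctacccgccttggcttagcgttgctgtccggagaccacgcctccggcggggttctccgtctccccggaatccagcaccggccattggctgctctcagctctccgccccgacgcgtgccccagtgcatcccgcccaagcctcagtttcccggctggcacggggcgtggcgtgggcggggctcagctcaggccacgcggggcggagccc
Slc25a36: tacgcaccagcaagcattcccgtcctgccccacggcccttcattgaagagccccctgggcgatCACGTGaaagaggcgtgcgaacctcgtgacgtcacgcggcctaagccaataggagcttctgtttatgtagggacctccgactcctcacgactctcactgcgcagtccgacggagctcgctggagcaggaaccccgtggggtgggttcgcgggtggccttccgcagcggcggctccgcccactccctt

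The window of Slc25a34 holds 1 CpG dinucleotide, the lowest count among the 34 carriers with a promoter in the table, while those of Slc25a1 and Slc25a36 hold 25 and 24. The median was 14 CpG over these carriers and 6 over all 27025 promoters. Searched on both strands, the nuclear receptor core AAGGTCA was found in 1 carrier window, that of Slc25a34, where the capitals show it on the opposite strand, and in 4.05% of all promoters. The E-box CACGTG was found in 6 of the 34 carrier windows, Slc25a1 and Slc25a36 among them, and in 6.05% of all promoters. This motif contains a CpG, and the background was not matched to the carriers for CpG count. The longer element TNAAGGTCA of the estrogen-related receptors, which contains the core, was in no carrier window and in 1.14% of all promoters. The GABP motif CCGGAAGT was in 1, that of Slc25a20, against 2.93% of all promoters. A match describes these letters in these windows, and binding was not measured.

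**Figure D2:**
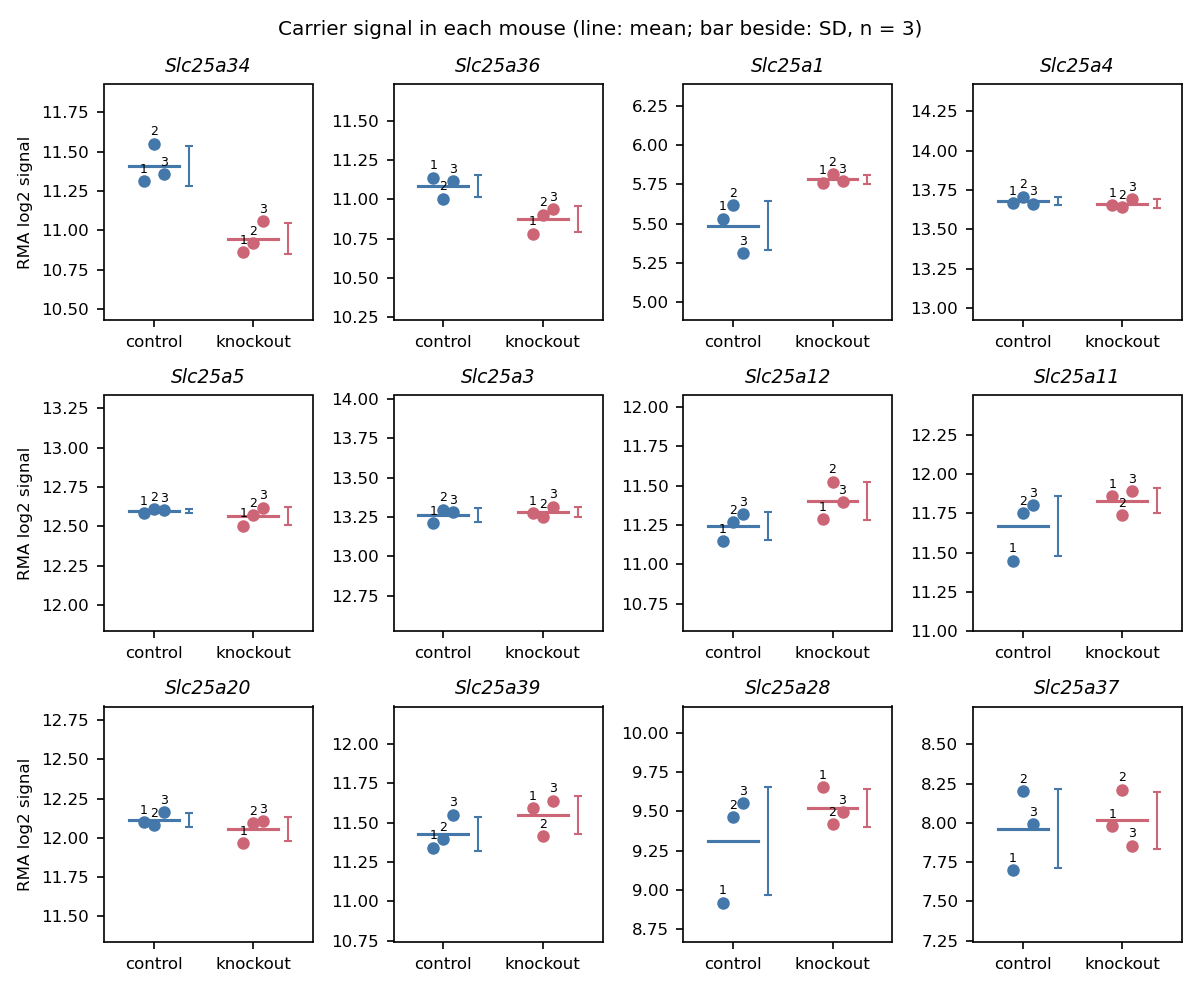
RMA log2 signal of 12 carriers in each mouse, numbered within its group, on axes that each span the same log2 range. Lines are group means and the bars beside them SDs (n = 3 mice). The groups separate for Slc25a34, Slc25a36 and Slc25a1, while Slc25a4, Slc25a5 and Slc25a3 vary little between mice.

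The carriers that serve ATP synthase were nearly level between the groups. Slc25a4, the ADP/ATP carrier of heart and skeletal muscle, read 13.66, 13.64 and 13.69 in the knockout mice against 13.67, 13.71 and 13.66 in the controls, a difference of -0.02 (SE 0.10, 95% interval -0.24 to 0.21). Slc25a5, the ADP/ATP carrier of many other tissues, read 12.50, 12.57 and 12.62 against 12.58, 12.61 and 12.60, a difference of -0.03 (SE 0.10, 95% interval -0.27 to 0.20). Slc25a3, the phosphate carrier, read 13.28, 13.25 and 13.32 against 13.21, 13.30 and 13.28, a difference of 0.02 (SE 0.10, 95% interval -0.21 to 0.25). For each of the 3 the groups overlapped, and the SD between mice of a group was at most 0.06. The SE of limma is wider than that spread because it borrows variance from all probe sets.

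These readings are near the top of the array scale, which ended at 14.28, so dimmer probe sets of the same genes were examined. The 4 probe sets of Slc25a4, with mean signals from 9.96 to 13.67, differed by -0.02 to 0.04. The 8 probe sets of Slc25a5, with mean signals from 6.87 to 12.58, differed by -0.07 to 0.00, and 7 of them were lower. Most Slc25a5 probe sets carry the array maker's x suffix for probes that may also match related sequences, so they may be read in part from other copies.

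The phosphate carrier gene gave 2 different readings. Its probe set 1440302_at read 8.80, 8.28 and 8.37 in the knockout mice against 8.74, 9.27 and 9.30 in the controls. Knockout 1 lay above control 1, so the groups overlapped, but the other 2 knockout mice lay below all controls. The Slc25a3 difference there was -0.62 (SE 0.20), beside 0.02 on the bright probe set. Its unadjusted limma p was 0.0171 and its adjusted p 0.414. Which Slc25a3 transcripts 1440302_at reads was not examined, since probe sequences were not used here.

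The other genes of this group also gave no call. Of the 9 adenine nucleotide and phosphate carriers, 4 were higher and 5 lower, with a median difference of -0.01. The ATP-Mg/phosphate carriers, which adjust the adenine nucleotide content of the matrix, differed by 0.25 (SE 0.16) in Slc25a23, -0.09 (SE 0.15) in Slc25a24, 0.02 (SE 0.22) in Slc25a25 and 0.08 (SE 0.15) in Slc25a41. Slc25a31, the ADP/ATP carrier of the testis, had a mean signal of 3.48 and differed by -0.13, and Slc25a54 had a mean signal of 2.39 and differed by -0.01.

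Among carriers of other nucleotides and cofactors, 3 of 9 measured genes were higher and 6 lower, with a median of -0.07. Slc25a26, which brings the methyl donor S-adenosylmethionine into the matrix, was higher on both of its probe sets, by 0.25 (SE 0.13, limma adjusted p = 0.644) and 0.24. Slc25a51, an NAD+ carrier, differed by -0.08 (SE 0.11), and Slc25a42, a carrier of coenzyme A, by -0.07 (SE 0.11). Slc25a16 differed by -0.15 and Slc25a32, a carrier of folate or FAD, by -0.02. Slc25a53, placed in this list without a named substrate, was higher on both probe sets, by 0.19 and 0.29, with groups that overlapped. The second had a mean signal of 3.26, and there knockout 3 at 2.83 lay below all controls. Slc25a17, a carrier of peroxisomes, differed by 0.14 with an SE of 0.35, and control 1 at 7.23 stood below the other 5 mice, which read 7.91 to 8.59.

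The carriers of the malate-aspartate shuttle did not pass, and their differences were positive on their brightest probe sets. Slc25a12, the calcium-regulated aspartate/glutamate carrier of heart and brain, read 11.29, 11.52 and 11.39 in the knockout mice against 11.15, 11.27 and 11.32 in the controls, a difference of 0.16 (SE 0.11, limma adjusted p = 0.776). Slc25a11, the oxoglutarate/malate carrier, read 11.86, 11.74 and 11.89 against 11.45, 11.75 and 11.80, a difference of 0.16 (SE 0.13, limma adjusted p = 0.802). Slc25a12 has 2 dimmer probe sets, which differed by 0.00 and -0.11. Its averaged probe sets differed by 0.02, and the bright one by 0.10 to 0.22 with a mouse left out. In both genes the groups overlapped, and the lowest reading was that of control 1. Without control 1 the difference of Slc25a11 was 0.05. The liver-type aspartate/glutamate carrier Slc25a13 differed by 0.10 (SE 0.10), and the dicarboxylate carrier Slc25a10 by -0.03 (SE 0.12).

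Of the 9 amino acid carriers, 8 were higher and 1 lower in the knockout mice, with a median of 0.13, where 55.1% of all genes were higher and the median was 0.02. None passed, and none had an unadjusted p under 0.05. The knockout mice lay above the controls for Slc25a15, an ornithine carrier, by 0.16 (SE 0.11), on its bright probe set, and a dim one differed by -0.01. Slc25a29, a carrier of basic amino acids, was higher on all 5 of its probe sets, by 0.27 to 0.47 (SE 0.19 to 0.24). None had an adjusted p under 0.05. The groups overlapped on each, with knockout 2 below control 3, and all 5 read the same 6 mice. Slc25a38, the glycine carrier that supplies heme synthesis, differed by 0.21 (SE 0.15), and Slc25a44, a carrier of branched-chain amino acids, by 0.11 to 0.17 over 3 probe sets. The glutamate carrier Slc25a22 differed by 0.12 and the dim ornithine carrier Slc25a2 by 0.07.

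The carnitine/acylcarnitine carrier gene Slc25a20 read 11.97, 12.09 and 12.11 in the knockout mice against 12.10, 12.08 and 12.16 in the controls. The groups overlapped, with a difference of -0.06 (SE 0.10, 95% interval -0.30 to 0.18), and its second probe set differed by -0.02.

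All 4 carriers of iron and glutathione were higher by sign, and none passed. Slc25a28, the iron importer mitoferrin of non-erythroid cells, read 9.65, 9.42 and 9.50 in the knockout mice against 8.92, 9.46 and 9.55 in the controls, a difference of 0.21 (SE 0.18). Control 1 lay below the other 5 mice, and without it the difference was 0.02. Slc25a37, the mitoferrin of erythroid cells, read 7.98, 8.21 and 7.86 against 7.70, 8.20 and 7.99, a difference of 0.05 (SE 0.16) that turned to -0.08 without control 1. Slc25a39, a glutathione carrier, read 11.59, 11.41 and 11.64 against 11.34, 11.40 and 11.55, with overlapping groups and a difference of 0.12 (SE 0.12). All 5 probe sets of Slc25a39 were higher, by 0.04 to 0.24, and Slc25a40, its relative, differed by 0.09 (SE 0.11).

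The carriers named for their likeness to the uncoupling proteins differed in both directions. Slc25a27 had the most negative difference of the family, -0.47 (SE 0.27, limma adjusted p = 0.704). It read 5.78, 4.92 and 4.66 in the knockout mice against 5.65, 5.42 and 5.69 in the controls, values that were singled out after they were seen. Knockout 1 lay above every control and the other 2 knockout mice below every control, and 2 of its 4 probe sets were higher in the knockout mice. With a mouse left out, the Slc25a27 difference ran from -0.80, without knockout 1, to -0.24, and its unadjusted limma p from 0.0016 to 0.402. Slc25a14 differed by 0.15 (SE 0.13) and Slc25a30 by -0.15 (SE 0.16). Among the carriers without an assigned substrate, Slc25a46, a protein of the outer membrane involved in mitochondrial shape, differed by -0.11 and -0.08 on its 2 probe sets. Slc25a35, Slc25a45, Slc25a47 and Slc25a48 differed by -0.02, 0.03, 0.14 and 0.27. Slc25a48 was dim, with a mean signal of 2.73 and an SE of 0.17, and its groups overlapped.

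**Figure D3:**
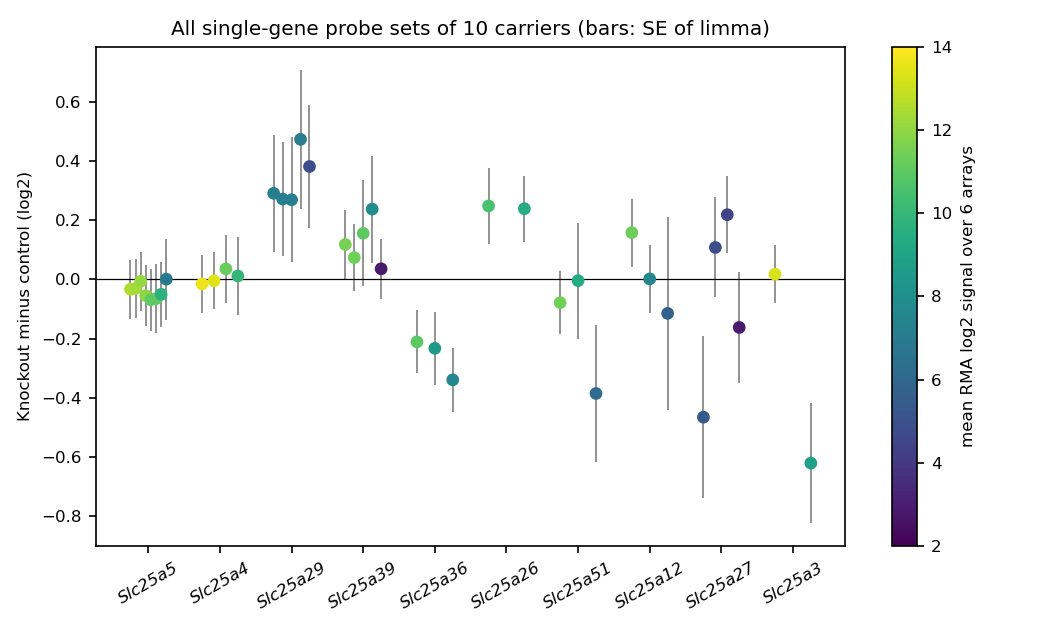
Log2 difference (knockout minus control) on every single-gene probe set of 10 carriers, coloured by mean RMA log2 signal, with SEs of limma as bars. The 8 probe sets of Slc25a5 and the 4 of Slc25a4 lie close to 0, all 5 of Slc25a29 lie above 0 and all 3 of Slc25a36 below, while the 2 probe sets of Slc25a3 disagree.

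Of the 23 carriers with more than 1 probe set, 11 had the same sign on all of them. Of the 93 probe sets of the family, 4 had an unadjusted limma p under 0.05 (1 each of Slc25a34, Slc25a1, Slc25a36 and Slc25a3), or 4.30% against 9.07% of all probe sets, and none passed after adjustment.

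Genes that work beside the carriers were examined in 7 lists with 48 measured genes. None passed after adjustment. At an unadjusted limma p under 0.05, 1 was higher and 2 were lower, or 6.25% against 9.27% of all genes. The groups did not overlap for 7 of the 48, or 14.6% against 16.0% of all genes. These were Got1 and Ckmt2 above the controls, and Ppif, Ckb, Atp5k, Atpif1 and Timm10 below them. Ppif, the gene of cyclophilin D, a regulator of the permeability transition pore, read 11.62, 11.70 and 11.69 in the knockout mice against 12.27, 12.07 and 12.22 in the controls. The groups did not overlap, by a difference of -0.52 (SE 0.11), with an unadjusted limma p of 0.00174 and an adjusted p of 0.184. On the other Ppif probe set they did not overlap either, by -0.22 (SE 0.11, limma adjusted p = 0.624). Ckb, the brain-type creatine kinase, read 8.58, 8.11 and 8.39 against 8.68, 9.51 and 9.36, a difference of -0.83 (SE 0.23), with an unadjusted limma p of 0.00869 and an adjusted p of 0.332. The groups did not overlap, and control 1 lay nearest to the knockout mice. Got1, the cytosolic aspartate aminotransferase of the malate-aspartate shuttle, read 12.48, 12.63 and 12.57 against 12.09, 12.29 and 12.36, a difference of 0.31 (SE 0.12), with an unadjusted limma p of 0.0316 and an adjusted p of 0.488. All knockout mice lay above all controls.

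None of the remaining partners had an unadjusted p under 0.05 on its brightest probe set. Dimmer probe sets did in 2 of them: 1438809_at of Atp5c1, the gamma subunit of ATP synthase, differed by -0.40 (SE 0.16, limma adjusted p = 0.528) and 1437805_at of Mtch2 by -0.29, at a mean signal of 2.36. The other shuttle enzymes, Got2, Mdh1 and Mdh2, differed by 0.03, 0.02 and -0.01. The 13 genes of ATP synthase and its inhibitor had a median of -0.02 and ran from -0.18 to 0.08, with 12 lower. These are values of bright probe sets near the top of the array scale. Among dimmer ones, those of Atpif1, the inhibitor of ATP synthase, differed by -0.35 (SE 0.15) and -0.48 (SE 0.23). That of Atp5g1 differed by 0.09. Those of Atp5g2 differed by -0.23 on 1456128_at and by -0.04 on 1447714_x_at, which had a mean signal of 2.15. The groups overlapped on each of these. On the brightest Atpif1 probe set, at -0.18, all knockout mice lay below all controls. The 10 genes that import carrier proteins had a median of -0.11, with 8 lower and a range from -0.20 to 0.23. The 4 carnitine shuttle enzymes had a median of 0.18 and the 5 genes of the pyruvate carrier and calcium uniporter one of 0.03. Among family members under other symbols, Ucp1, Ucp3, Mtch1 and Mtch2 differed by -0.29, -0.25, 0.12 and -0.09. Ucp1 was dim, with a mean signal of 2.77, the SE of Ucp3 was 0.39, and the groups overlapped for both. Ucp2, Cpt1b, Mpc2 and Mcub were not analysed here.

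**Figure D4:**
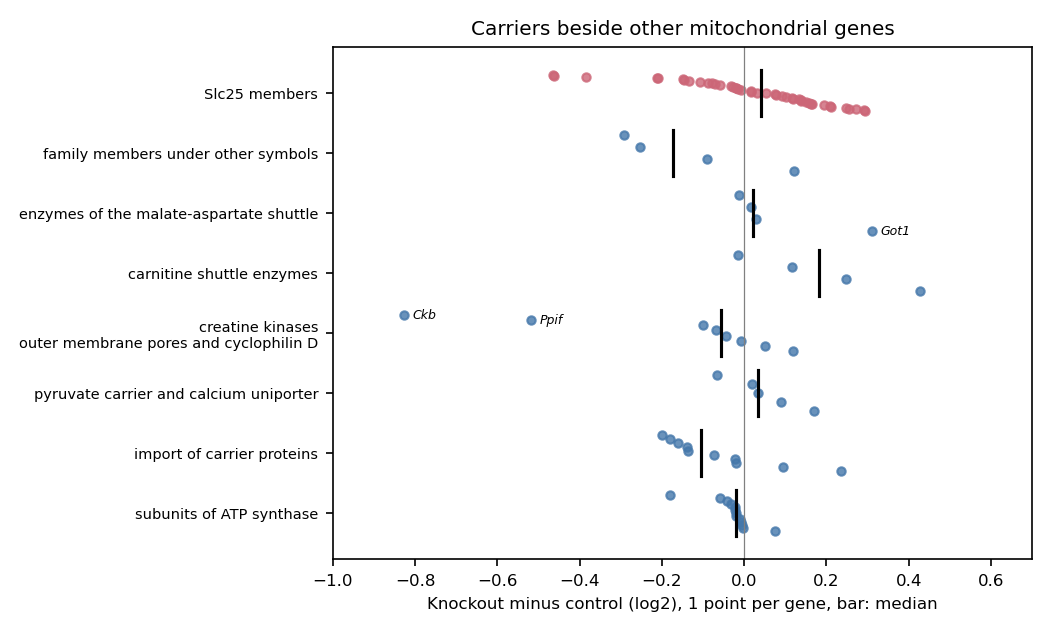
Log2 difference (knockout minus control) of each carrier and of each gene in 7 lists of other mitochondrial genes, 1 point per gene, with the list median as a bar. The ATP synthase genes cluster near 0, and the labelled points Ckb, Ppif and Got1 are the partners at an unadjusted p under 0.05.

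Among the markers of other cells in the tissue, all 5 macrophage markers were lower, and their mean log2 level was 7.99 to 8.38 in the knockout mice and 8.44 to 8.67 in the controls, without overlap. Of these, Mrc1 had the largest difference, -0.51 (SE 0.13, limma adjusted p = 0.288), and Cd68 the smallest, -0.14 (SE 0.18). The groups did not overlap for 3 of the 5, where 16.0% of all genes did not, and overlapped for Cd14 and Cd68. The dimmest macrophage marker, Adgre1, had a mean signal of 6.78. The part of macrophages in the differences of Slc25a34, Slc25a36 and Slc25a1 was not tested. The mean levels of the cardiomyocyte, fibroblast, endothelial, smooth muscle, erythroid, adipocyte and skeletal muscle markers overlapped between the groups, and the cardiomyocyte markers lie near the top of the array scale. Of their single markers, 4 did not overlap, all with the knockout mice lower, where 16.0% of all genes did not. They were 1 of 5 endothelial, 1 of 3 erythroid, 1 of 5 adipocyte and 1 of 5 skeletal muscle markers. Acta1 differed by -0.88 (SE 0.23, limma adjusted p = 0.290), Cidea by -0.76 (SE 0.18, limma adjusted p = 0.242), the dim Hba-a1 by -0.32 and Cdh5 by -0.16. Acta1 had a mean signal of 10.39, and the other skeletal muscle markers ran from 2.34 in Myh1 to 8.53 in Mylpf. Cidea had one of 9.28, and the other adipocyte markers ran from 2.77 in Ucp1 to 12.81 in Fabp4. Which cells gave the signal of Acta1 and Cidea was not tested. None of the 4 markers passed, and their part in the carriers' differences was not tested.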

How the data were processed

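Total RNA of the left ventricular apex was labelled with the NuGen Ovation biotin system and hybridised to 1 array per mouse, per the labels. The authors deposited RMA values, per the submitters' processing notes, without an RMA version or genome build in those sources. They were taken as log2 of the signal because the deposited values ran from 1.36 to 14.28. Of 45101 probe sets, 64 controls were left out. Genes came from the platform annotation, with symbols updated by Entrez identifier (34741 of 34945 single-gene probe sets matched); 932 probe sets with several genes and 9160 unlisted ones stayed unnamed.

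Knockout was compared with control by limma 3.58.1 in R 4.3.3 (lmFit, eBayes without trend or robust prior), two-sided, group as the only term, with Benjamini-Hochberg adjustment over 45037 probe sets. The test was tried on simulated data. Intervals use the moderated SE with 7.39 degrees of freedom, and the number of mice limits the precision. The labels number separate mice. Deviations of same-numbered mice correlated at -0.15, -0.08 and -0.01. These values gave no sign of pairing by number. They cannot exclude it, since each deviation is taken from the mean of only 3 mice.

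The members and lists were chosen with earlier results of these data known, so lists are described by counts and medians without a test. Values in every mouse are given for carriers at an unadjusted p under 0.05 on any probe set, the 6 brightest, and Slc25a4, Slc25a5, Slc25a3, Slc25a12, Slc25a20, Slc25a28 and Slc25a37. Partner genes have values in every mouse at an unadjusted limma p under 0.05 on the brightest probe set. Other partners were named outside this rule, among them the dimmer probe sets of Atpif1, Atp5g1 and Atp5g2. The alternatives changed 1 choice at a time. For the fit they were array weights, a variance trend, a robust prior, no moderation and a replicate block. For the values they were 2 cut-offs for dim probe sets, quantile normalization, median centring and averaged probe sets. For the mice they were leaving out each mouse and the 4 arrays with like description numbers. Other thresholds and counting any probe set were also tried. The 4 arrays whose description numbers share their leading digits are knockout 3 and the 3 controls, so that setting rests on 1 knockout mouse. Knockouts 1 and 2 carry other leading digits, and the part of this in the differences was not tested.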

Additional observations from a re-analysis of the deposited data

How the results depend on the processing

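In all settings tried, 0 of the analysed carriers passed an adjusted p of 0.05 with limma, any probe set of a gene included. At an adjusted p under 0.1 there were 0 with the settings of the report and 1 with a variance trend, Slc25a34 at 0.086. The filters left 37 and 34 of 44 carriers. The number at an unadjusted limma p under 0.05 was 2 with all mice. It was 4 with array weights, 4 with averaged probe sets and 4 counting any probe set. Among probe sets with a mean of at least 6 it was 1, and with a mouse left out 1 to 3. With a variance trend these carriers were Slc25a26, Slc25a34 and Slc25a36, and without moderation Slc25a1, Slc25a34 and Slc25a36. With the replicate block the number was 2, both lower, Slc25a34 and Slc25a18, so Slc25a1 was no longer among them. The share of all genes in each of these settings is not given here, so these counts cannot be set beside a background. No carrier was called with or without the block. The median difference of the carriers, 0.04, was 0.08 with each array centred on its median, which also moved the median of all genes from 0.02 to 0.06, and 0.06 with averaged probe sets. It was 0.03 to 0.08 with a mouse left out. In the 4 arrays with like description numbers, 1 knockout mouse against 3 controls, the median was 0.02. Centring also changed the split from 25 higher and 19 lower to 31 and 13. Slc25a34 was lower in all 17 other settings, with differences from -0.52 to -0.35.

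Signs near 0 turned. Slc25a4 differed by 0.03 with centring, 0.01 in the 4 arrays and 0.01 with averaged probe sets, and Slc25a5 by 0.01 with centring and 0.02 in the 4 arrays. Slc25a3 differed by -0.30 with averaged probe sets, as its probe sets disagree, and by -0.01 to 0.03 with a mouse left out. Slc25a37 differed by -0.05 with array weights, -0.11 in the 4 arrays and -0.08 to 0.17 with a mouse left out. Of the 4 Paxip1 probe sets, 0 passed with the replicate block, without moderation or with any mouse left out. All 4 stayed lower in these settings and in the 4 arrays, and the cause of the lost calls was not tested. Precision is limited by 3 mice a group and, for 7 dim carriers, by low signal.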
